A study of Arabidopsis thaliana with 4 samples.

Results

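COR15A, COR15B and SRC2 are cold-response genes of Arabidopsis thaliana, 3 of the 13286 genes with a named probe set of their own among 22746 probe sets tested. The 3 genes were chosen by name with their values on these arrays already known, so their levels and differences are given as a description with no test. Shoot apices were dissected from seedlings 8 days old of the Ws-0 accession. All of them carried the 35S:LEC1-GR transgene, in which the broadly active 35S promoter drives LEC1, a seed-development subunit of the NF-Y transcription factor, joined to the steroid-binding domain of the glucocorticoid receptor (GR). The fusion protein stays inactive until dexamethasone is supplied. The dexamethasone group was incubated for 1 h in liquid GM medium containing 1% sucrose and 30 µM dexamethasone (2 arrays), and the untreated group in the same medium without it (2 arrays). Growth was at 20 °C under 16 h of light and 8 h of dark, and no cold treatment is named in the labels. No plants lacking the fusion were among the samples, so an effect of dexamethasone itself cannot be told apart from one of LEC1-GR, and the labels do not say whether the line came from 1 transformant. LEC1 has no named probe set here, so the transgene's own transcript was not checked.

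Cold exposure makes Arabidopsis produce the CBF (DREB1) transcription factors, which bind the CRT/DRE element in the promoters of COR genes and raise their transcripts. COR15A and COR15B are neighbouring copies on chromosome 2 and encode small proteins of the late embryogenesis abundant (LEA) type that act in the chloroplast stroma and stabilise membranes during freezing. SRC2, on chromosome 1, encodes a calcium-binding C2 domain protein, named after a cold-regulated gene of soybean, that is known to activate the NADPH oxidase RBOHF. COR15 transcripts also respond to abscisic acid and drought, and many COR genes are under the control of the circadian clock.

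Values are log2 expression values from robust multi-array averaging (RMA), 1 per probe set and array, so a difference of 1 is 2-fold. The highest of the 27 probe sets for Bacillus control transcripts, 4.74 and 4.79 on the dexamethasone arrays and 4.68 and 4.86 on the untreated arrays, served as a background level. The untreated pair was the less alike. Its 2 arrays differed at least 2-fold in 665 probe sets (2.92%), against 159 (0.699%) in the dexamethasone pair. Untreated replicate 2 was the lowest of the 4 arrays by at least 1 log2 unit in 143 probe sets, against 11 and 7 for dexamethasone replicates 1 and 2 and 27 for untreated replicate 1. Results that rest on this array are given with and without it.

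The 3 genes behaved in different ways. SRC2 was higher on both dexamethasone arrays than on both untreated arrays, by 2.49-fold. COR15A and COR15B differed far more between the 2 untreated arrays than between the groups. Only SRC2, 1 of the 3, had groups that did not overlap, a separation that 47.2% of all probe sets showed in either direction and 22.3% with dexamethasone higher. Nothing is read from that count, as the contrast was known when the genes were chosen.

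**Figure D1:**
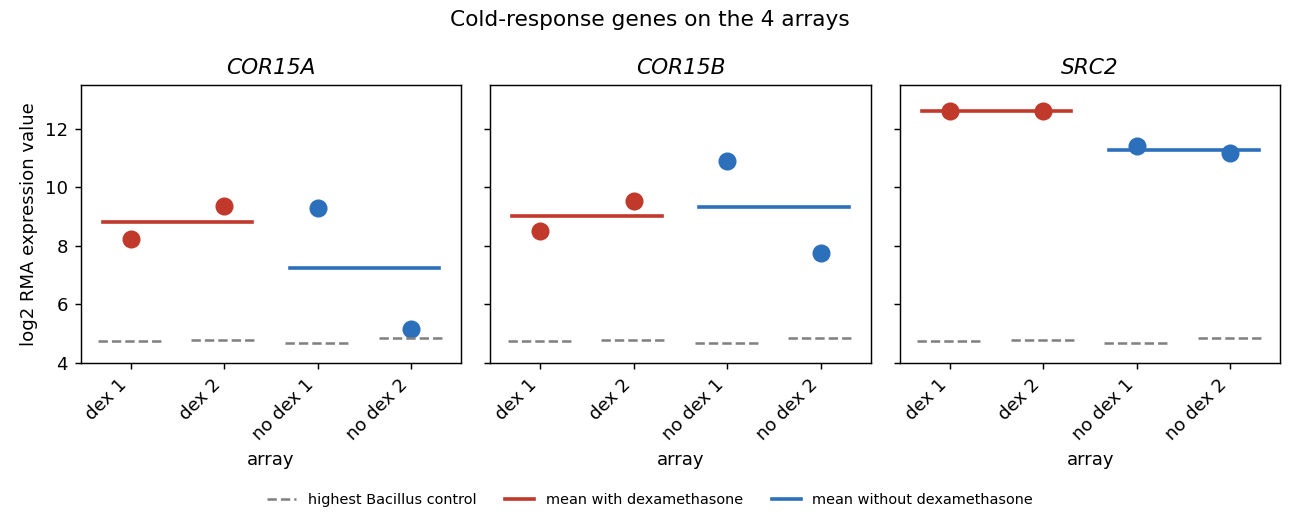
The plot gives the log2 RMA value (vertical axis) of COR15A, COR15B and SRC2 on the 4 arrays, dexamethasone arrays in red and untreated arrays in blue. Solid lines are group means of 2 arrays and grey dashes the highest Bacillus control probe set of each array. The 2 SRC2 dexamethasone points, 12.61 and 12.60, lie above both untreated points, while COR15A on untreated replicate 2, at 5.15, lies just above that array's control level of 4.86.

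COR15A, the better known of the 2 COR15 copies, read 8.25 and 9.38 on the dexamethasone arrays, against 9.31 and 5.15 on the untreated arrays. Untreated replicate 2 stood alone at the bottom, 3.10 below the next lowest array, while untreated replicate 1 lay between the 2 dexamethasone arrays, so the groups overlapped. COR15A averaged 8.81 ± 0.80 with dexamethasone and 7.23 ± 2.94 without it (SD, n = 2 each), a difference of 1.58 ± 1.36 (limma's standard error). On untreated replicate 2 the value was only 0.29 above the control level, against 3.51 and 4.59 on dexamethasone replicates 1 and 2 and 4.63 on untreated replicate 1. The low value is therefore close to background, and a size of fold drawn from it is uncertain. The difference was -0.50 when untreated replicate 2 was left out, and 3.66 when untreated replicate 1 was.

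COR15B, the adjacent copy, read 8.49 and 9.52 on the dexamethasone arrays, against 10.91 and 7.75 on the untreated arrays. Both dexamethasone values fell inside the interval spanned by the untreated pair, whose replicate 1 was the highest and replicate 2 the lowest of the 4. The means were 9.01 ± 0.73 with dexamethasone and 9.33 ± 2.23 without it (SD, n = 2 each), a difference of -0.32 ± 1.05 (limma's standard error). All 4 arrays lay clear of background, by at least 2.89. The sign turned with the array left out. Leaving out untreated replicate 1 gave 1.26 and leaving out untreated replicate 2 gave -1.90. Leaving out dexamethasone replicate 1 gave 0.20 and leaving out dexamethasone replicate 2 gave -0.84.

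SRC2 read 12.61 and 12.60 on the dexamethasone arrays, against 11.41 and 11.17 on the untreated arrays. The groups were apart by 1.19 at their closest, with both dexamethasone arrays on the high side. The means were 12.61 ± 0.01 with dexamethasone and 11.29 ± 0.17 without it (SD, n = 2 each), and the difference was 1.32 ± 0.14 (limma's standard error). Leaving out any 1 array kept it between 1.19 and 1.44. A difference of this size or larger, in either direction, occurred in 486 of the 22746 probe sets (2.14%), against 257 (1.13%) for the size seen in COR15A and 6040 (26.6%) for that in COR15B. With 2 arrays a group, an exact two-sided permutation test could not go below p = 0.333.

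The gap between the untreated replicates was the main feature of both COR15 genes. COR15A was 17.9-fold (4.16 log2 units) higher on untreated replicate 1 than on untreated replicate 2, the widest gap of all 22746 probe sets in that pair. COR15B was 8.90-fold (3.15) higher on replicate 1, a size reached by 15 probe sets. SRC2 differed 1.19-fold (0.25) in the same pair, which 37.0% of probe sets matched or exceeded. The median gap of all probe sets was 0.18 and its 95th percentile 0.78.

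Within the dexamethasone pair the COR15 genes went the other way. COR15A was 2.18-fold (1.13 log2 units) and COR15B 2.04-fold (1.03) higher on replicate 2 than on replicate 1, sizes that 92 and 141 probe sets reached in that pair. SRC2 differed by 0.01 between the 2 dexamethasone arrays, where the median probe set differed by 0.15. Only 2 probe sets, those of COR15A and COR15B, combined an untreated gap of at least 3 with a dexamethasone gap of -1 or below (replicate 1 minus replicate 2), a combination picked after their values were seen.

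**Figure D2:**
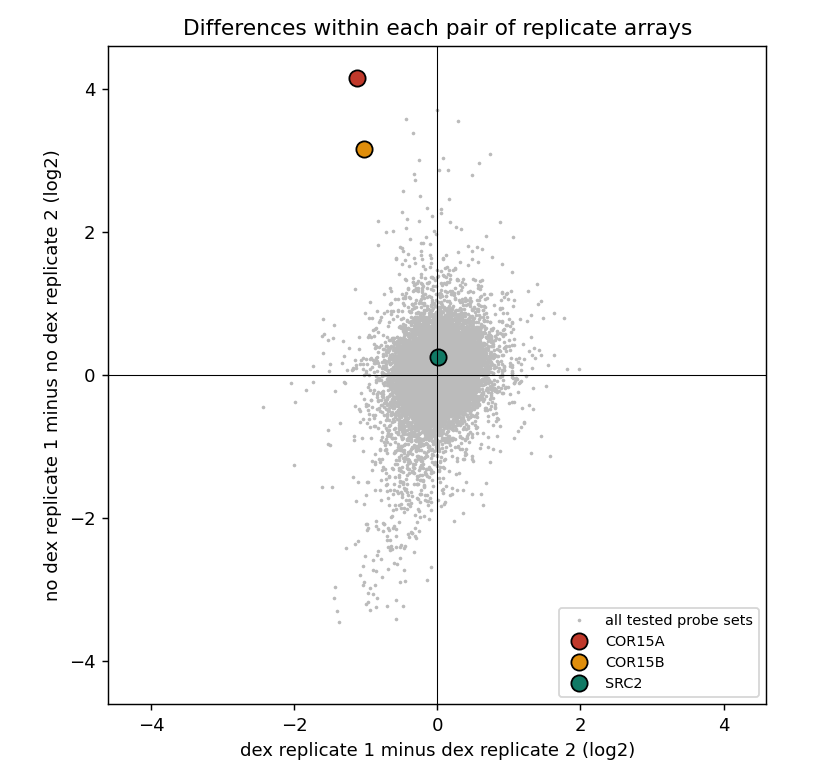
Each point is 1 of the 22746 tested probe sets, placed by the log2 difference between the 2 dexamethasone arrays (horizontal axis) and between the 2 untreated arrays (vertical axis), replicate 1 minus replicate 2 in both. COR15A (-1.13, 4.16) and COR15B (-1.03, 3.15) lie alone at the upper left, and SRC2 (0.01, 0.25) lies in the central cloud.

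The neighbouring copies did not move by the same amount. The log2 value of COR15A minus that of COR15B was -0.24 and -0.15 on the dexamethasone arrays, against -1.60 and -2.60 on the untreated arrays. This difference takes out whatever an array adds equally to both genes. It was higher on both dexamethasone arrays than on either untreated array, with means of -0.19 ± 0.07 with dexamethasone and -2.10 ± 0.71 without it (SD, n = 2 each), and it was chosen after the values were seen. COR15A thus stood 3.74-fold higher relative to COR15B with dexamethasone than without it, 2.64-fold when untreated replicate 2 was left out and 5.30-fold when untreated replicate 1 was. Among single probe sets, 22.3% had groups that did not overlap with dexamethasone higher. The share for pairs of probe sets was not counted, so nothing is read from the separation. The level of 1 probe set against another has no meaning of its own. The near-background reading of COR15A on untreated replicate 2 enters the lower value. The 2 genes are close copies, and how far either probe set also binds the other's transcript was not tested.

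COR15A and COR15B correlated at 0.82 over the 4 arrays, COR15A and SRC2 at 0.57 and COR15B and SRC2 at -0.01. These coefficients describe 4 arrays that all genes share and carry no test. Of the 10 other protein-coding genes within 5 places of COR15A or COR15B, 5 had a probe set of their own. Their untreated arrays differed by -0.96 to 0.19 (replicate 1 minus replicate 2), against 4.16 and 3.15 for the COR15 genes. Among them, AT2G42480 and AT2G42560 lay below the control level on all 4 arrays, so a fall could not be seen in either. Of the 10 around SRC2 only AT1G09130 was measured, at a group difference of -0.10. The group differences of all 6 ran from -0.36 to 0.21, and 0 were called in limma, with 0 at an unadjusted p below 0.05. Over all probe sets these shares were 2.37% and 17.2%, so nothing is read from the counts for 6 genes. AT2G42520, next to COR15B, read 8.40 and 8.60 with dexamethasone against 8.51 and 8.57 without it.

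The genes with the most similar profiles were found by centring each gene on its own mean and taking the root mean square distance over the 4 arrays, among 13435 other probe sets matched to 1 gene. For SRC2 the 8 nearest genes were very close, at 0.02 to 0.08 log2 units. All were higher on both dexamethasone arrays, which follows from their choice as nearest to SRC2, and nothing is read from it. EFR, the receptor for bacterial elongation factor Tu, was the nearest at 0.02. It read 6.93 and 6.92 with dexamethasone against 5.77 and 5.50 without it, a difference of 1.29. AT3G19010 (0.05), AT2G44670 (0.06), AT1G49450 (0.06), AT5G65470 (0.07), AT1G63750 (0.07), AT3G15810 (0.08) and AT4G16140 (0.08) followed, and the differences of the 8 ran from 1.17 to 1.43. On untreated replicate 2, AT1G49450 lay below the control level and AT4G16140 only 0.11 above it, so the size of their differences is uncertain.

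No gene came as close to COR15A by this distance, which is not scaled and tends to be larger for genes with a wide range. COR15A ranged over 4.22 log2 units and SRC2 over 1.45. The 8 nearest to COR15A lay at distances of 0.52 to 0.86. Over the 4 arrays they correlated with it at 0.87 to 0.99, against 0.996 to 1.000 for the 8 nearest to SRC2. All 8 around COR15A had their lowest value on untreated replicate 2. COR15B was not among them, with 19 probe sets of named genes nearer than it. AT5G62360, the nearest, read 12.35 and 12.61 with dexamethasone against 12.62 and 9.62 without it. The pirin gene PRN, at 0.59, read 9.34 and 9.65 with dexamethasone against 9.45 and 6.72 without it. The single low array of these profiles follows from their choice as nearest to COR15A, and nothing is read from it. AT2G38240 (0.62), AT1G16850 (0.75), the beta-glucosidase gene BGLU40 (0.80), AT4G21870 (0.81), AT1G51090 (0.86) and AT3G48460 (0.86) completed the set. On untreated replicate 2, AT1G51090 lay below the control level and AT2G38240 only 0.23 above it, so their low points are close to background.

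Around COR15B the 8 nearest genes lay at 0.44 to 0.66. Each was highest on untreated replicate 1 and lowest on untreated replicate 2, as their choice by nearness favours. AT1G52000, the nearest at 0.44, read 5.70 and 5.55 with dexamethasone against 7.56 and 4.70 without it. AT5G48570, annotated as FKBP65 or ROF2, a peptidyl-prolyl isomerase of the FKBP type, followed at 0.48 with 5.77 and 6.02 against 7.63 and 5.47. AT5G47330 (0.49), AT1G68500 (0.49), the plastid RNA polymerase gene rpoC1 (0.55), AT1G16850 (0.58), Fes1A (0.61), whose product binds HSP70 chaperones, and AT1G54050 (0.66) were the others. AT1G16850 was thus near to both COR15 genes. On untreated replicate 2, AT1G52000 and AT1G54050 lay below the control level and AT5G47330 0.01 above it, so their low points are at background.

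**Figure D3:**
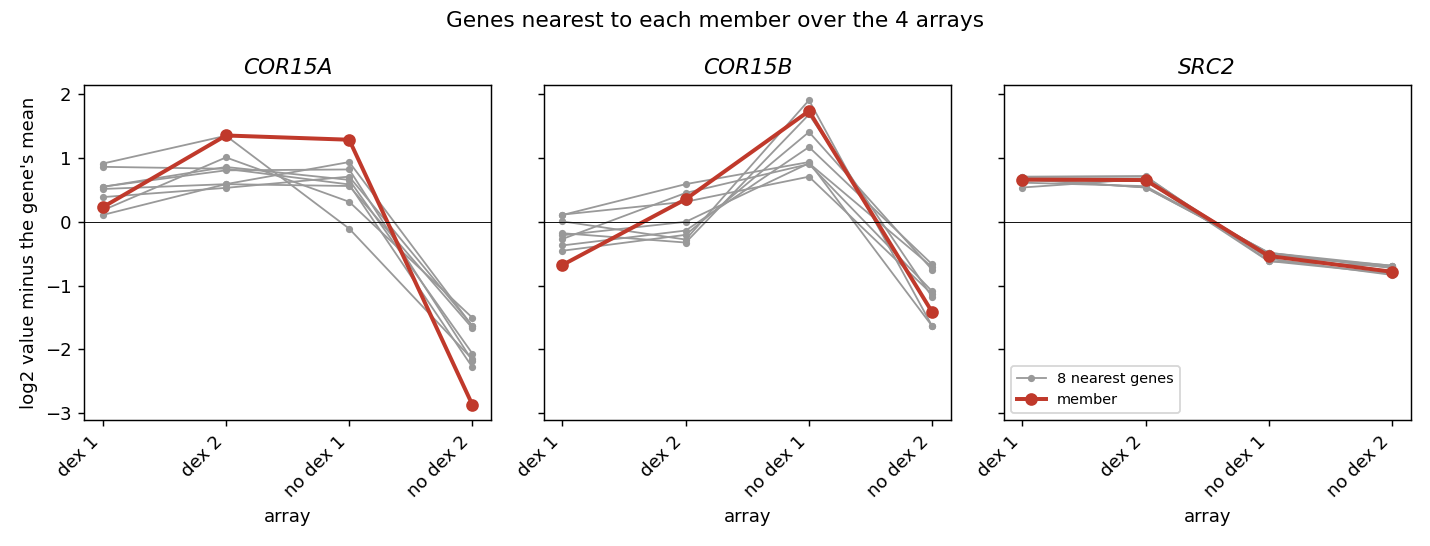
Each panel shows 1 member (red) and the 8 genes nearest to it (grey), as log2 values minus the gene's own mean (vertical axis) on the 4 arrays, dexamethasone arrays on the left. The SRC2 panel is a tight step between the groups. In the COR15A and COR15B panels all 8 grey lines are lowest on untreated replicate 2. The choice by nearness favours both patterns.

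Few other genes of the cold pathway could be read, because many probe sets are unnamed here. The groups were compared over all 22746 probe sets with limma and Benjamini-Hochberg adjustment, and 2.37% were called at an adjusted p of 0.05, 1.49% higher and 0.879% lower with dexamethasone. Of 33 further cold-regulated target genes 5 were measured, with 0 called higher and 2 called lower. Their median difference was -0.29, against -0.02 over all probe sets, and -0.42 when untreated replicate 2 was left out. COR27 and COR28, which link cold and the clock, were the 2 that fell. COR27 read 4.81 and 4.80 with dexamethasone against 8.59 and 8.92 without it, a difference of -3.95 ± 0.16 (limma adjusted p = 0.0173). Its dexamethasone values were only 0.08 and 0.01 above the control level, nearer to background than any COR15A value, so the size of this fall is uncertain. COR28 read 5.38 and 5.29 with dexamethasone against 8.48 and 8.67 without it, a difference of -3.24 ± 0.14 (limma adjusted p = 0.0173). These 2 genes had no large gap between the untreated arrays, unlike the COR15 genes. With dexamethasone replicate 1 or 2 left out the differences were -3.96 and -3.94 for COR27 and -3.28 and -3.20 for COR28. Their limma adjusted p was then 0.234 and 0.206, the lowest of any probe set in those fits, which called none (with 2672 and 2448 at an unadjusted p under 0.05).

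The remaining cold targets did not pass. LTI30, a dehydrin gene, read 10.54 and 10.91 with dexamethasone against 10.55 and 8.65 without it, a difference of 1.12 ± 0.62 (limma adjusted p = 0.458). As in COR15A, untreated replicate 2 alone was low. The difference of LTI30 was 0.17 without that array, and 2.08 without untreated replicate 1, where it was called (limma adjusted p = 0.0158, and 0.0158 to 0.855 over all alternatives). COR47, also a dehydrin gene, read 12.96 and 13.11 with dexamethasone against 13.46 and 12.77 without it, a difference of -0.08 ± 0.25 (limma adjusted p = 0.933). The order of its arrays matched that of COR15B, with untreated replicate 1 highest and replicate 2 lowest, over a narrower range. GI, a clock gene that affects freezing tolerance, read 8.79 and 8.91 with dexamethasone against 9.10 and 9.18 without it, a difference of -0.29 ± 0.13 (limma adjusted p = 0.351).

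Upstream of the COR genes, 2 of 37 transcription factors were measured and 0 were called in limma, with 0 at an unadjusted p below 0.05. Over all probe sets these shares were 2.37% and 17.2%. STZ (ZAT10) encodes a zinc finger transcriptional repressor that acts in cold and osmotic stress responses. STZ read 11.21 and 10.77 with dexamethasone against 10.90 and 9.10 without it, a difference of 0.99 ± 0.59 (limma adjusted p = 0.500). It was again untreated replicate 2 that was low, and the difference was 0.09 with that array left out. With untreated replicate 1 left out it was 1.89 and was called (limma adjusted p = 0.0207, and 0.0207 to 0.903 over all alternatives). EIN3, an ethylene factor that represses CBF genes, differed by -0.04 ± 0.13 and its 4 values lay between 10.08 and 10.26. The CBF genes themselves and ICE1 were not analysed here. Of 17 signalling genes 3 were measured and 0 called in limma, with 0 at an unadjusted p below 0.05. The ubiquitin ligase genes PUB25 and PUB26, whose products act on the cold repressor MYB15, differed by -0.24 ± 0.23 and -0.28 ± 0.21.

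The LEA and dehydrin list, the protein class of COR15A and COR15B, had 5 of 13 genes measured and 0 called in limma, with 2 at an unadjusted p below 0.05, as had 17.2% of all probe sets. HIRD11, a dehydrin gene, read 11.79 and 11.83 with dexamethasone against 12.54 and 12.32 without it, a difference of -0.62 ± 0.14 (limma adjusted p = 0.103). M10 differed by 0.56 ± 0.15 (limma adjusted p = 0.155), with 1 untreated array at or below the control level. The list's median difference was 0.20, against -0.02 over all probe sets, and 0.17 when untreated replicate 2 was left out. Of 24 abscisic acid and osmotic stress genes none had a named probe set of its own.

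For SRC2 the comparison list held touch, C2 domain and NADPH oxidase genes, of which 4 of 16 were measured, 1 was called higher and 0 lower. Over all probe sets 1.49% were called higher and 0.879% lower. Of the 4 genes, 2 had an unadjusted p below 0.05 in limma, as had 17.2% of all probe sets. Nothing is read from counts for 4 genes. RBOHF was not analysed here. CML39, a calmodulin-like gene, read 6.31 and 5.74 with dexamethasone against 4.51 and 4.47 without it, a difference of 1.54 ± 0.21 (limma adjusted p = 0.0432). Neither untreated value exceeded the control level, so the size of the rise is uncertain. With dexamethasone replicate 1, dexamethasone replicate 2 or untreated replicate 2 left out the difference was 1.25, 1.82 and 1.52, and it was no longer called (limma adjusted p = 0.234, 0.206 and 0.0673). The first 2 of these p are the lowest of any probe set in their fits. The list's median difference was 0.82, against -0.02 over all probe sets, and 0.28 when untreated replicate 2 was left out. That array was the lowest for all 4 measured genes, though for CML37 and CML39 both untreated values were at background. It was also the lowest for each of the 3 members and for 26.6% of all probe sets.

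**Figure D4:**
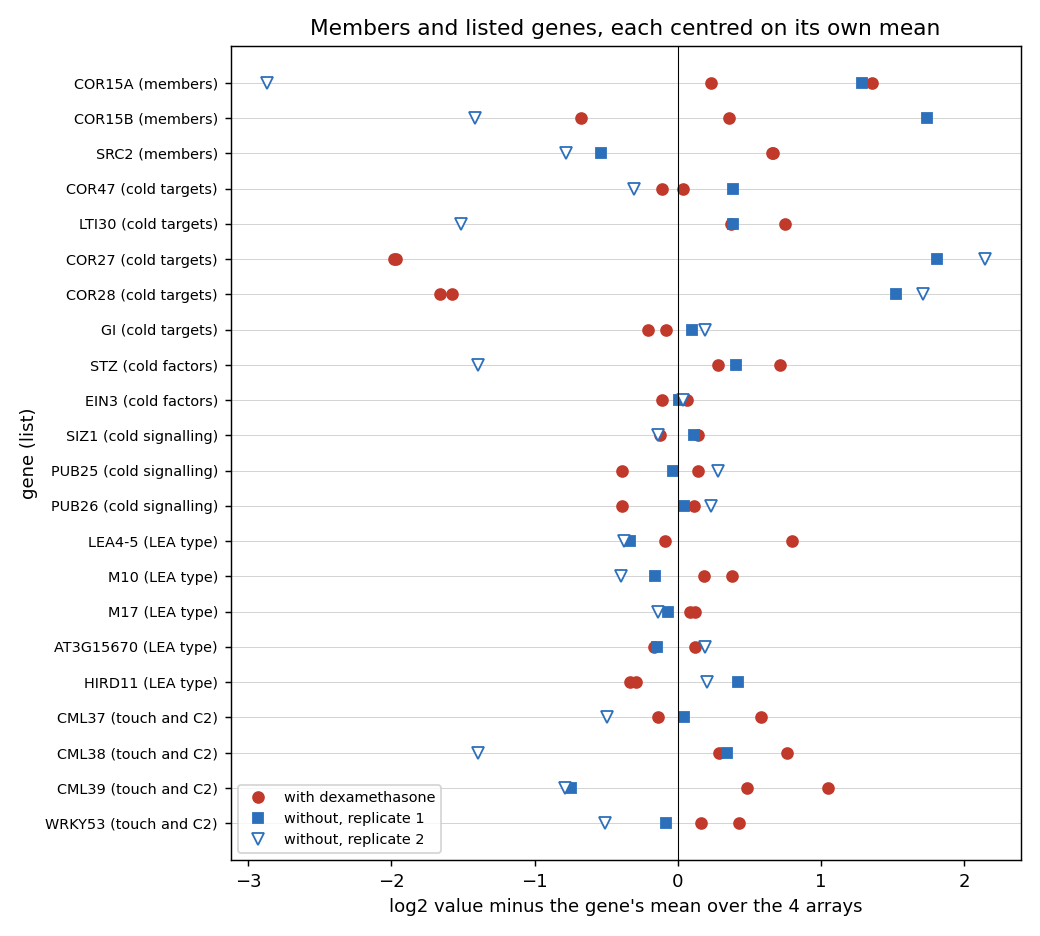
For each gene the log2 values on the 4 arrays are shown after subtraction of the gene's own mean (horizontal axis), with red circles for dexamethasone, blue squares for untreated replicate 1 and open blue triangles for untreated replicate 2. COR15A, COR15B, LTI30 and STZ have the open triangle far to the left, COR27 and COR28 have both untreated symbols far to the right of the red ones, and SRC2 has both to the left.

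Among the measured tissue markers, the root genes PYK10, EXPA7 and EXPA18 were the most uneven between the untreated arrays. Of 18 shoot apex markers 2 were measured. YAB3, a leaf polarity gene, read 7.81 and 7.66 with dexamethasone against 7.79 and 7.82 without it, while the stem cell gene CLV3 was at or below the control level on both dexamethasone arrays and on 1 untreated array. The leaf genes RCA and LHCB4.1, 2 of 4 listed, lay above 13 on all arrays. Of 13 root markers 5 were measured, and AGL42 and AGL21 were at or below the control level throughout. The summed linear signal of the 5 was 3709 and 4220 with dexamethasone, and 3129 and 5158 without it, most of it from PYK10, a beta-glucosidase gene of root and hypocotyl. Untreated replicate 2, the array with the lowest COR15A and COR15B, had the highest root sum, and untreated replicate 1 the lowest. EXPA7 and EXPA18, expansins of root hairs, were 1.22 and 1.60 higher on untreated replicate 2 than on untreated replicate 1. They read only 5.03 and 4.86 on untreated replicate 1, near its control level of 4.68, so the size of these gaps is uncertain. The part of tissue make-up in the COR15 values was not tested. In dissected apices, fewer cells of a type and less RNA per cell cannot be told apart. The 3′ minus 5′ values of the Actin control probe sets, a sign of RNA integrity, were 1.08 and 1.43 on the dexamethasone arrays and 0.99 and 1.07 on the untreated arrays, so the untreated pair differed little in this measure.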

How the data were processed

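The authors deposited log2 expression values, 1 per probe set and array, made with RMA and the affy package per the submitters' processing notes. The sources used here give no versions or quality checks. RMA sets arrays to a common distribution, so a shift of all transcripts cannot be seen. The precision is limited by the 2 arrays per group, and no read depth applies. Of 22810 probe sets, 64 controls were left out and 22746 tested. Gene names came from the platform annotation and the TAIR10.1 gene table. In all, 13513 probe sets matched 1 gene, 503 several and 8730 none. The probe set with the highest mean stood for a gene. The values come with no genome build, and no coordinates or sequences are printed.

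Groups and replicate numbers came from the sample titles, and the series text calls the replicates biological. limma 3.58.1 in R 4.3.3 (lmFit, eBayes, two-sided, no block) was fitted to all probe sets with Benjamini-Hochberg adjustment and checked on simulated data. The members, gene lists and tests were chosen with earlier results of these data known. The naming rule took every measured cold target, up to 5 called genes of each other list or the 2 with the smallest p, and the 8 nearest genes per member. Genes outside it, named for comparison, were chosen after their values were seen. Alternatives were a replicate block, 2 scalings, a floor at the control level, dim probe sets left out, trend and robust eBayes, probe sets that match 1 gene, and leaving out each array.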

Additional observations from a re-analysis of the deposited data

How the results depend on the processing

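Leaving out 1 array gave -0.50 to 3.66 for COR15A, -1.90 to 1.26 for COR15B and 1.19 to 1.44 for SRC2. The 2 scalings gave 1.60 and 1.59 for COR15A, -0.33 and -0.31 for COR15B, and 1.31 and 1.32 for SRC2. The floor could not change the differences, as no member value lay below the control level. Nor could the replicate block, as each group held 1 array of each replicate number. Over all probe sets, limma called 339 higher and 200 lower, and 559 higher and 300 lower with the replicate block. The block ended or added no call among the list genes. Same-numbered arrays deviated together weakly (correlation 0.227, from 2 pairs). The labels name no shared batch and do not say whether the numbers pair the samples, so pairing is not known. Testing only the 13513 probe sets that match 1 gene called 172 higher and 101 lower. With each array left out in turn the calls numbered 0 to 734 higher and 0 to 458 lower, the lone array being assumed to vary like the other group. The zeros came without dexamethasone replicate 1 or 2, with 2672 and 2448 probe sets at an unadjusted p below 0.05 in limma. The lists then had 0 to 3 cold targets, 0 to 1 cold transcription factors and 0 to 2 touch genes called (2, 0 and 1 with all arrays). The cause was not tested. No value could be given for the abscisic acid list, which had no measured gene. A planned motif count in promoters was not run, as no sequence was used here. Signal near background limits COR15A on untreated replicate 2 and COR27 on both dexamethasone arrays.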

Other observations

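Among 13286 named genes, 15 differed at least 8-fold (3 log2 units) between the 2 untreated arrays, 4 of them higher on replicate 1 and 11 higher on replicate 2. COR15A, AT5G47330 (3.54 log2 units), COR15B and AT5G62360 were the 4 higher on replicate 1. The 3 widest gaps in the other direction were those of AT1G18980 (-3.45), AT4G30170 (-3.41) and AT4G26010 (-3.29), replicate 1 minus replicate 2. AT4G30170 read 7.70 and 8.28 with dexamethasone, and 6.67 and 10.08 without it. AT4G26010 read 5.22 and 6.62 with dexamethasone, and 5.90 and 9.19 without it. These genes were chosen after their values were seen.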
